A study of Mus musculus with 30 samples.

Results

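The mitochondrial respiratory chain genes of the developing mouse dorsal pancreas were followed on 5 consecutive days of gestation, e12.5 (embryonic day 12.5) through e16.5. They were taken by symbol, as every gene measured by a probe set with 1 annotated symbol that starts with Nduf, Sdha, Sdhb, Sdhc, Sdhd, Uqcr, Cox4, Cox5, Cox6, Cox7, Cox8 or Atp5. This gave 84 of the 15964 genes on the arrays. Complex I had 39 of them, complex II 8, complex III 7, complex IV 16 and complex V 14. The symbols also took in 11 assembly factors, 7 of complex I (Ndufaf1, Ndufaf2, Ndufaf3, Ndufaf4, Ndufaf5, Ndufaf6 and Ndufaf8) and 4 of complex II (Sdhaf1 to Sdhaf4), and Cox7a2l, a factor that joins complexes III and IV into supercomplexes. The other 72 are structural subunits.

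The samples were dorsal pancreata of NMRI mouse embryos, an outbred strain, with no treatment or transgene named in the labels. Buds of a litter were pooled before RNA extraction, and the number of litters or embryos per stage is not stated in the labels. Each stage is 1 pool, labelled in 2 separate reactions (reaction 1 and reaction 2), and each reaction went onto all 3 chips (A, B and C) of the Affymetrix MG-U74 version 2 set, so that 30 arrays were made, 10 for each chip. The spread between the reactions of a stage is therefore technical, and stage and pool cannot be told apart.

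The chain carries electrons from food to oxygen across the inner mitochondrial membrane and uses the proton gradient it builds to make ATP. Complex I takes electrons from NADH and complex II from succinate. Complex III passes them on to cytochrome c, complex IV hands them to oxygen, and complex V, the ATP synthase, makes ATP. All genes here are nuclear. The core subunits that the mitochondrial genome encodes do not carry these symbols and were not analysed here. Over these days the pancreatic bud grows, and its acinar cells begin to make digestive enzymes in bulk.

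The deposited values are log2 expression values, so a difference of 1 is a doubling. A level is set here only against the same gene at another stage, never against another gene. Of the 84 genes, 74 had a probe set brighter than the median of its chip, and 10 were dimmer. The 10 dim genes were Atp5j2, Atp5pb, Cox7a1, Cox8a, Ndufaf5, Ndufaf6, Ndufc2, Sdha, Sdhaf3 and Sdhaf4. No detection calls were used, so how far a dim probe set lies above background is unknown, and none was filtered out. Chip A measured 66 of the genes, chip B 9 and chip C 9.

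Across the series, reactions from the same pool had correlations of 0.996 to 0.998, and the median of an array ranged from 5.71 to 5.76 for chip A, from 5.26 to 5.31 for chip B and from 3.99 to 4.02 for chip C. The 12 acinar marker genes all rose over the stages, with a median fitted change of 5.32. Markers of mesenchyme fell in 4 of 9 genes and rose in 1, and neural and Schwann cell markers fell in 4 of 6. Cell cycle markers fell in 2 of 7. Islet markers rose in 4 of 8 genes and fell in 1, and endothelial markers rose in 1 of 7 and fell in 2. Of all genes 11.9% rose and 17.0% fell. Fewer cells of a type and less RNA per cell cannot be told apart in such bulk samples.

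The first question was which respiratory chain genes changed steadily with stage. A line over embryonic day was fitted with limma to the 5 pool means of each gene, and its slope times 4 days is the fitted change. At an adjusted p under 0.05, 12 of the 84 genes rose, 2 fell and 70 did not pass. The share that rose, 14.3%, is near the share of all genes that rose, 11.9%. The share that fell, 2.38%, is below the 17.0% of all genes. The median fitted change was 0.16, against 0.02 for all genes, and 65 of the 84 changes were above 0. The rises were in complex I (8 genes), complex III (2) and complex IV (2), and the falls were 1 gene of complex I and 1 assembly factor of complex II. No gene of complex V passed.

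**Figure D1:**
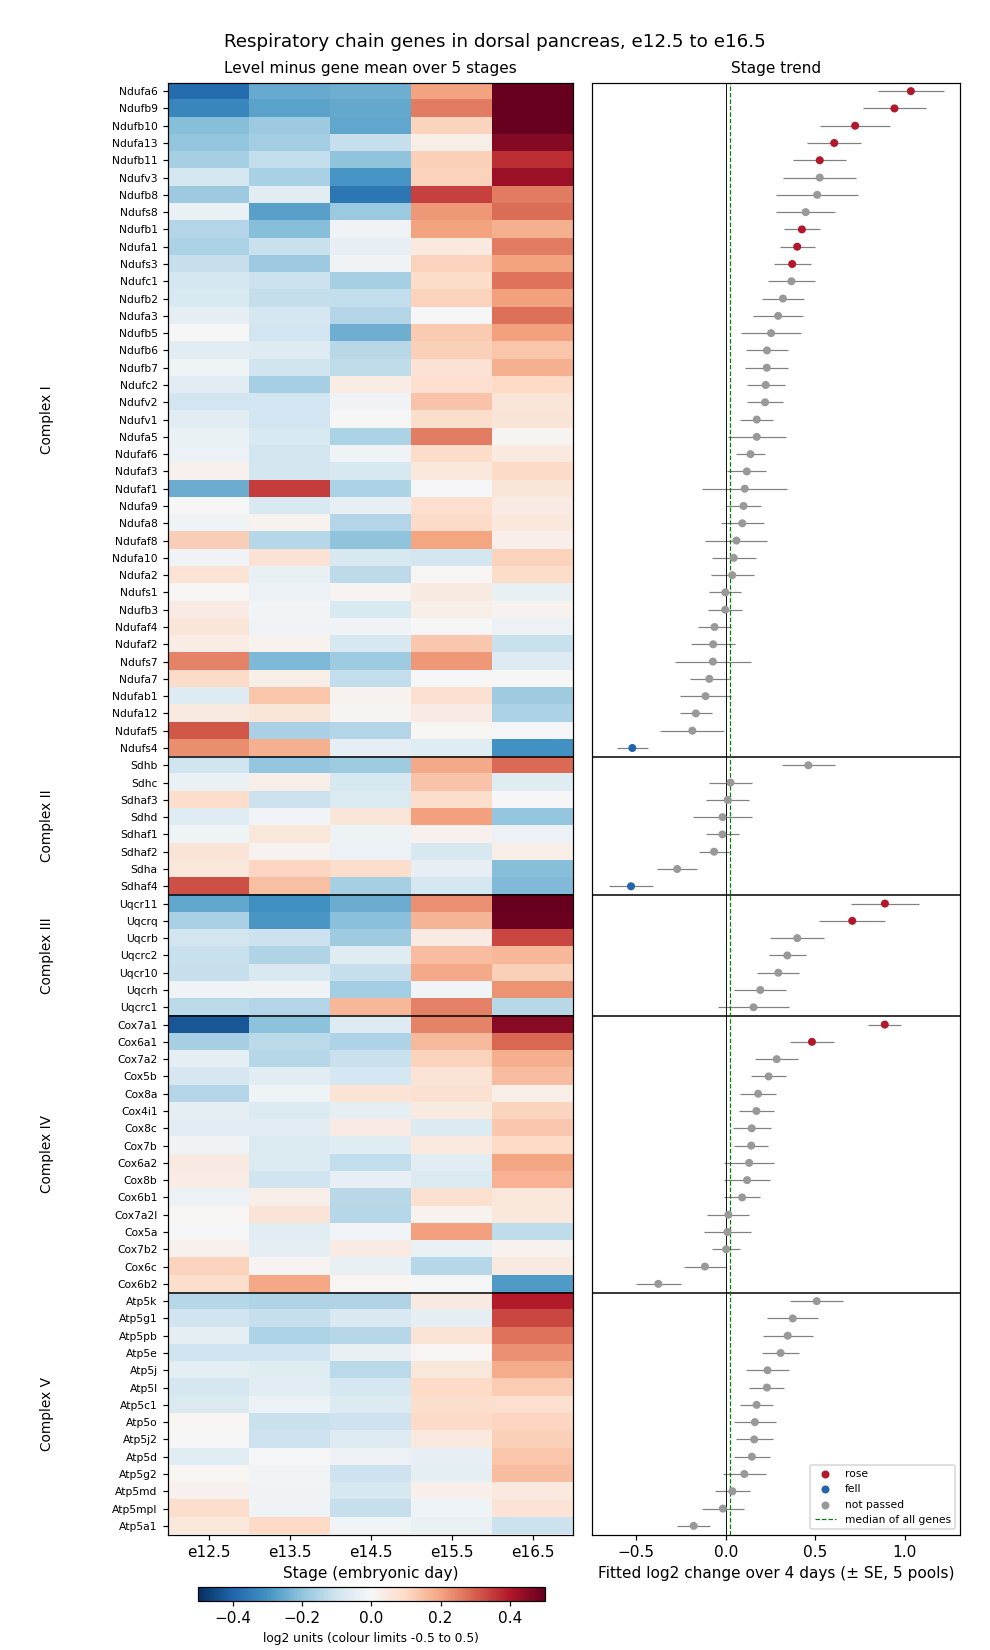
Levels of the 84 respiratory chain genes by stage. Left, the mean log2 level of both labelling reactions at each stage minus the mean of the gene over the 5 stages, with colours cut off at 0.5; right, the fitted log2 change over 4 days with its SE (5 pools), red for the 12 genes that rose, blue for the 2 that fell and grey for the 70 that did not pass, with the median of all genes (0.02) as a dashed line.

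These calls lean on a few pools. Without the e16.5 pool 1 gene rose (Cox7a1) and 0 fell. Without the e13.5 pool 3 rose (Cox7a1, Ndufa6 and Ndufb9) and 1 fell (Ndufs4). Without the e15.5 pool 7 rose and 2 fell. Leaving out the e12.5 pool gave 12 rises and 1 fall, with 9 of the 14 genes called on all pools called again. Other treatments of the arrays moved the counts too. The 10 arrays taken as separate samples gave 34 rises and 4 falls, but that fit counts the 2 reactions of a pool as independent. The pool as a random block gave 22 and 3. The shares of all genes under these fits were not counted, so the larger counts have no baseline. An intensity trend in the prior variance left 9 rises, without Cox6a1, Ndufb11 and Ndufs3.

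In complex I, the L-shaped enzyme that oxidises NADH, the genes that rose lay mostly in the membrane arm. That arm pumps protons, and the matrix arm carries the electrons to quinone. The arms were set out after the values were known, so their counts are a description. In the membrane arm 6 of 17 genes rose and none fell, with a median change of 0.32 over all 17. In the matrix arm 2 of 14 rose and 1 fell, with a median of 0.14. The share that rose was 35.3% in the membrane arm and 14.3% in the matrix arm, the latter near the 11.9% of all genes. Of all genes 17.0% fell. Ndufab1, the acyl carrier protein found in both arms, changed by -0.11 ± 0.14 and did not pass (adjusted p = 0.588).

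Ndufa6, an accessory subunit of the matrix arm, had the largest fitted change of the 84 genes. Its levels were 6.63 and 7.04 at e12.5, 6.94 and 6.996 at e13.5, 6.97 and 6.97 at e14.5, 7.51 and 7.33 at e15.5, and 7.86 and 7.94 at e16.5. Reaction 1 at e12.5 was the lowest of the 10 arrays, and both arrays of e15.5 and of e16.5 lay above all earlier ones. The fitted change was 1.03 ± 0.18 (SE, n = 5 pools; limma adjusted p = 0.0103), or 2.05-fold. This rise rests on 1 probe set on chip A. The other probe sets of Ndufa6, both on chip C, gave -0.11 ± 0.08 (adjusted p = 0.326) and -0.10 ± 0.08 (adjusted p = 0.390), and the mean over all 3 did not pass.

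Ndufb9, an accessory subunit of the membrane arm, was measured by 1 probe set. Its levels were 8.47 and 8.52 at e12.5, 8.58 and 8.53 at e13.5, 8.58 and 8.55 at e14.5, 9.15 and 9.01 at e15.5, and 9.35 and 9.46 at e16.5. The arrays of the first 3 stages spanned a narrow range and those of e15.5 and e16.5 lay above it, with no overlap. The fitted change was 0.94 ± 0.18 (limma adjusted p = 0.0129), or 1.92-fold.

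The other membrane arm genes that rose were Ndufb10, Ndufa13, Ndufb11, Ndufb1 and Ndufa1. The arrays of Ndufb10 read 8.71 and 8.62 at e12.5, 8.71 and 8.68 at e13.5, 8.64 and 8.59 at e14.5, 8.99 and 8.98 at e15.5, and 9.38 and 9.46 at e16.5, and the gene changed by 0.72 ± 0.19 (limma adjusted p = 0.0398). Its reactions at e15.5 and at e16.5 lay above those of every earlier stage. Ndufa13, also known as GRIM-19, stood at 7.90 ± 0.01 at e12.5 and 8.55 ± 0.05 at e16.5 (mean ± SD of 2 reactions) and changed by 0.61 ± 0.15 (adjusted p = 0.0309). Most of that came between e15.5, at 8.12, and e16.5. Ndufb11 changed by 0.52 ± 0.15 (adjusted p = 0.0459), Ndufb1 by 0.42 ± 0.10 (adjusted p = 0.0207) and Ndufa1 by 0.40 ± 0.10 (adjusted p = 0.0296). Leaving out 1 array of e14.5 or of e15.5 lost the call of Ndufb11, and leaving out reaction 2 of e12.5 lost those of Ndufb10 and Ndufa1. All of these genes lost the call without the e13.5 pool or without the e16.5 pool. Ndufb10 and Ndufb11 also lost it without the e15.5 pool, Ndufb11 and Ndufa1 without the e12.5 pool, and Ndufa1 without the e14.5 pool. The other probe sets of Ndufb10 (0.25 ± 0.11, adjusted p = 0.151) and Ndufa1 (0.17 ± 0.15, adjusted p = 0.437), both dim, did not pass.

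Ndufs4 went the other way. It encodes an accessory subunit at the matrix arm, and mice without it are used as a model of Leigh syndrome. Its levels were 4.84 and 5.15 at e12.5, 5.01 and 4.87 at e13.5, 4.76 and 4.67 at e14.5, 4.63 and 4.78 at e15.5, and 4.46 and 4.46 at e16.5, so both arrays of e16.5 lay below all others. The fitted change was -0.52 ± 0.09 (limma adjusted p = 0.00529), or 0.696 times the e12.5 level. That probe set is on chip C, and the other probe set of Ndufs4, a dim one on chip A, gave -0.03 ± 0.11 (adjusted p = 0.881).

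Among the 6 core subunits measured, which hold the flavin and iron-sulfur clusters or the quinone site, Ndufs3 rose by 0.37 ± 0.10 (adjusted p = 0.0432). It lost the call when any 1 of the 5 pools was left out, and also without 1 array of e12.5, of e14.5 or of e15.5. Its other probe set, a dim one on chip B, changed by 0.28 ± 0.11 (adjusted p = 0.103) and did not pass. Ndufs8, an iron-sulfur subunit, changed by 0.45 ± 0.16 (adjusted p = 0.0848) and did not pass. The same holds of Ndufv2 (0.22 ± 0.10, adjusted p = 0.158), Ndufv1, which binds NADH (0.17 ± 0.09, adjusted p = 0.215), and Ndufs1 (0.00 ± 0.09, adjusted p = 0.983). Ndufs7, next to the quinone site, changed by -0.07 ± 0.21 (adjusted p = 0.828) with no steady course. Its means were 9.59 at e12.5, 9.12 at e13.5, 9.17 at e14.5, 9.56 at e15.5 and 9.28 at e16.5, so it was high at e12.5 and e15.5 and low at the stages between. Of the 7 assembly factors of complex I none passed, and their fitted changes ran from -0.19 for Ndufaf5 to 0.14 for Ndufaf6.

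Complex II, succinate dehydrogenase, also works in the tricarboxylic acid cycle, and its genes did not share a direction. The median fitted change of its 8 genes was -0.02. Sdhb, the iron-sulfur subunit, had levels of 8.97 and 8.97 at e12.5, 8.90 and 8.86 at e13.5, 8.88 and 8.91 at e14.5, 9.28 and 9.25 at e15.5, and 9.38 and 9.33 at e16.5. Its reactions at e15.5 and e16.5 all lay above those of the first 3 stages, yet the line did not pass (change 0.46 ± 0.15, limma adjusted p = 0.0671). A second, bright probe set of Sdhb on chip B changed by 0.06 ± 0.20 (adjusted p = 0.847). Sdha, the flavoprotein, is measured by a dim probe set that stood at 4.64 ± 0.10 at e12.5 and 4.37 ± 0.01 at e16.5 (change -0.27 ± 0.11, adjusted p = 0.122).

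The membrane anchors Sdhc and Sdhd, which bind the quinone, had their highest mean at e15.5. Sdhd was at 9.54 at e12.5, 9.58 at e13.5, 9.66 at e14.5, 9.80 at e15.5 and 9.41 at e16.5. It was lower at e16.5 than a day earlier by -0.40 ± 0.07 (limma adjusted p = 0.00177). Sdhc differed between these stages by -0.20 ± 0.06 (adjusted p = 0.0433). Both changes are smaller than 1.5-fold. Of the 4 assembly factors, Sdhaf4, which binds the free flavoprotein, fell by 0.53 ± 0.12 on the log2 scale (adjusted p = 0.0178). Its levels were 5.56 and 5.26 at e12.5, 5.16 and 5.32 at e13.5, 4.98 and 4.87 at e14.5, 4.99 and 5.003 at e15.5, and 4.88 and 4.85 at e16.5. The probe set is dim on average, with 1 array of e12.5 and 1 of e13.5 above the median of its chip, and it lost the call without the e12.5, the e13.5 or the e16.5 pool.

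Complex III, the cytochrome bc1 complex, had the largest median fitted change of the 5 complexes, 0.34 over 7 genes, all of them above 0. Uqcr11 and Uqcrq, small subunits of the membrane part, rose. The arrays of Uqcr11 read 9.38 and 9.33 at e12.5, 9.30 and 9.32 at e13.5, 9.33 and 9.40 at e14.5, 9.85 and 9.84 at e15.5, and 10.16 and 10.23 at e16.5. The first 3 stages stayed within a narrow range, and e15.5 and e16.5 each lay above all earlier arrays. The fitted change was 0.89 ± 0.19 (limma adjusted p = 0.0197), or 1.85-fold. Uqcrq read 10.67 and 10.63 at e12.5, 10.54 and 10.497 at e13.5, 10.56 and 10.64 at e14.5, 11.003 and 10.96 at e15.5, and 11.30 and 11.29 at e16.5, lowest at e13.5 and above all earlier arrays at e15.5 and at e16.5, with a change of 0.71 ± 0.18 (adjusted p = 0.0363). Both lost the call without the e13.5 pool or the e16.5 pool, and Uqcrq also without the e15.5 pool and when each chip was quantile normalized again.

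The other 5 genes of complex III did not pass. Uqcrb, which lines a quinone site, changed by 0.40 ± 0.15 (adjusted p = 0.101) and Uqcr10 by 0.29 ± 0.12 (adjusted p = 0.118). Uqcrh, the hinge protein next to cytochrome c1, changed by 0.19 ± 0.15 (adjusted p = 0.368). The core proteins Uqcrc1 and Uqcrc2, relatives of the mitochondrial processing peptidase, parted. Uqcrc2 changed by 0.34 ± 0.10 (adjusted p = 0.0567). Uqcrc1 was at 9.41 at e12.5, 9.40 at e13.5, 9.71 at e14.5, 9.80 at e15.5 and 9.41 at e16.5, a hump rather than a slope. It was higher at e14.5 than at e13.5 by 0.31 ± 0.06 (limma adjusted p = 0.0181) and lower at e16.5 than on the day before by -0.39 ± 0.06 (adjusted p = 0.000948), both under 1.5-fold.

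Complex IV, cytochrome c oxidase, has subunits that come in tissue isoforms, and an isoform of heart and skeletal muscle was the one that rose most. Cox7a1 read 3.43 and 3.54 at e12.5, 3.69 and 3.73 at e13.5, 3.79 and 3.92 at e14.5, 4.26 and 4.07 at e15.5, and 4.50 and 4.24 at e16.5. Every stage mean lay above the one before. The fitted change was 0.89 ± 0.09 (limma adjusted p = 0.00173), or 1.85-fold, and it kept the call without any 1 pool. This probe set is dim at every stage. The common isoform of the same subunit, Cox7a2, stood at 9.76 ± 0.08 at e12.5 and 9.98 ± 0.00 at e16.5 (change 0.28 ± 0.12, adjusted p = 0.131) and did not pass.

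The other muscle isoforms did not pass. Cox6a2 changed by 0.13 ± 0.14 (adjusted p = 0.534) and Cox8b by 0.12 ± 0.13 (adjusted p = 0.533). Of 20 genes of a muscle and brown fat list, 2 rose and 1 fell. Both shares lie below those of all genes, of which 11.9% rose and 17.0% fell, so the list as a whole did not stand out. Acta1, skeletal muscle actin, rose by 0.75 ± 0.17 (adjusted p = 0.0215) and Myl7, an atrial myosin light chain, by 0.50 ± 0.10 (adjusted p = 0.0117), while Actg2, an actin of visceral smooth muscle, fell by 0.57 ± 0.10 (adjusted p = 0.0119). Cardiac and slow muscle myosin Myh7 (0.21 ± 0.10), the muscle mitochondrial creatine kinase Ckmt2 (0.10 ± 0.11) and the brown fat uncoupler Ucp1 (0.01 ± 0.10) did not pass. Whether cells of muscle have a part in the change of Cox7a1 was not tested.

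Cox6a1, the common isoform of its subunit, was the other gene of complex IV to rise. Its levels were 10.53 and 10.58 at e12.5, 10.604 and 10.57 at e13.5, 10.56 and 10.58 at e14.5, 10.89 and 10.88 at e15.5, and 11.02 and 10.999 at e16.5. The arrays of the first 3 stages lay between 10.53 and 10.60, and those of e15.5 and e16.5 above them. The change was 0.48 ± 0.12 (adjusted p = 0.0343), or 1.4-fold, and the call was lost without the e12.5, the e13.5, the e15.5 or the e16.5 pool. The other common subunits did not pass, among them Cox4i1 (0.17 ± 0.10), Cox5a (0.01 ± 0.13), Cox5b (0.24 ± 0.10), Cox6b1 (0.09 ± 0.10) and Cox8a (0.18 ± 0.10, dim). Of the testis isoforms Cox6b2 changed by -0.38 ± 0.13 (adjusted p = 0.0729), Cox8c by 0.14 ± 0.11 and Cox7b2 by 0.00 ± 0.08, and none passed. A pair of further probe sets of Cox8c on chip C did pass, one bright and one dim, with changes of 0.40 ± 0.12 and 0.31 ± 0.09 (adjusted p = 0.0450 and 0.0473).

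Complex V had 14 genes and no call in the stage trend, with a median fitted change of 0.17 and 12 changes above 0. Atp5k, the small subunit e that helps ATP synthases pair into dimers, came nearest. It read 6.19 and 6.39 at e12.5, 6.20 and 6.37 at e13.5, 6.33 and 6.23 at e14.5, 6.58 and 6.37 at e15.5, and 6.82 and 6.83 at e16.5, so the arrays of e16.5 lay above all others and those of e15.5 overlapped e12.5. Its change was 0.51 ± 0.15 (limma adjusted p = 0.0511), and it passed under several alternatives, for example when arrays were centred on their median (0.54, adjusted p = 0.0436). The c subunit, which forms the rotor ring, is made from several genes for the same mature protein. Atp5g1 changed by 0.37 ± 0.14 (adjusted p = 0.102) and Atp5g2 by 0.10 ± 0.12 (adjusted p = 0.565). Another probe set of each passed, a dim one of Atp5g1 at 0.49 ± 0.11 (adjusted p = 0.0204) and one of Atp5g2 on chip C at 0.69 ± 0.09 (adjusted p = 0.00254). The remaining probe set of Atp5g2, a dim one, did not (0.14 ± 0.10, adjusted p = 0.309). In the catalytic head, Atp5a1 (alpha) stood at 10.84 ± 0.10 at e12.5 and 10.68 ± 0.04 at e16.5 and changed by -0.18 ± 0.09 (adjusted p = 0.191), and Atp5c1 (gamma) by 0.17 ± 0.09 (adjusted p = 0.223). Atp5j2, subunit f, was measured by a pair of dim or barely bright probe sets that disagreed. The one used, on chip A, changed by 0.16 ± 0.10 (adjusted p = 0.305), and the other, on chip C, fell by 1.18 ± 0.27 on the log2 scale (adjusted p = 0.0174).

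**Figure D2:**
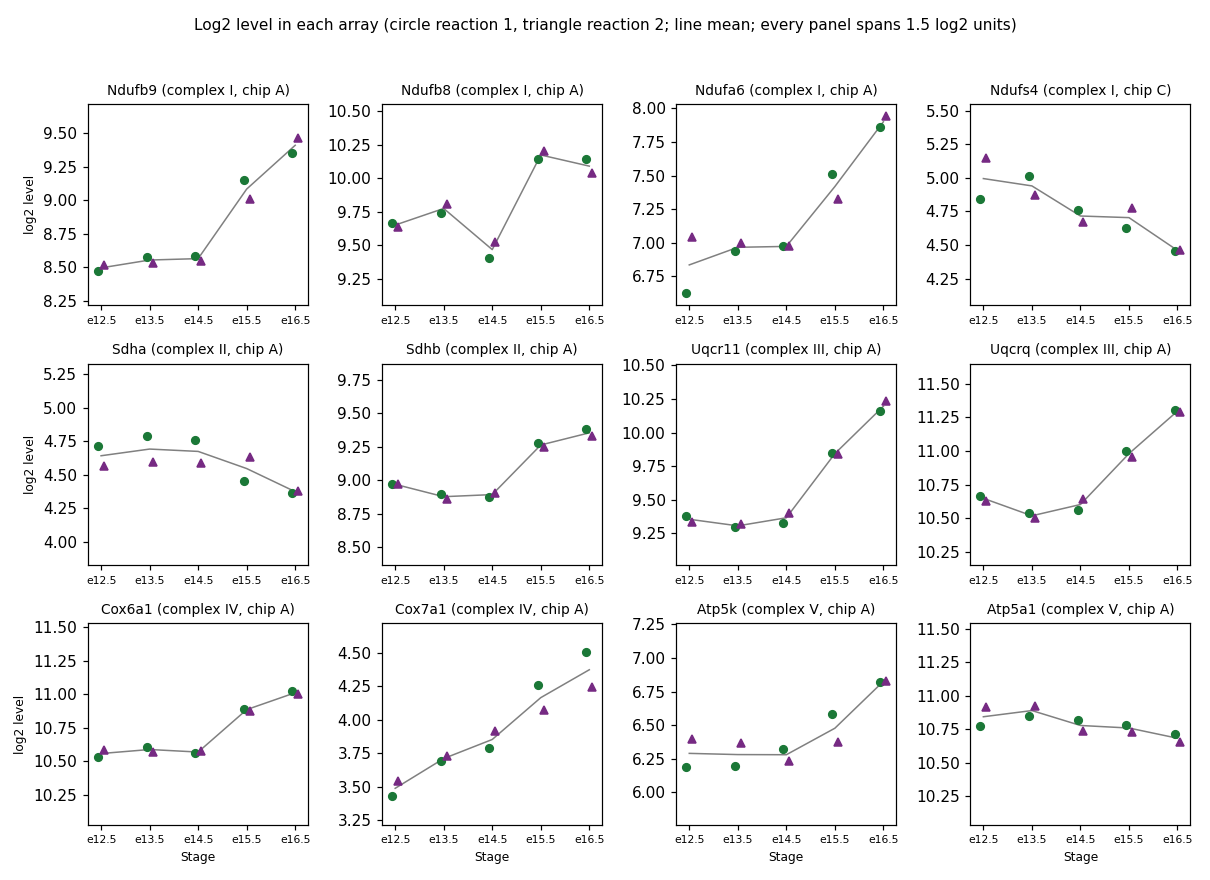
Log2 level of 12 respiratory chain genes on each of the 10 arrays of their chip, by stage, with circles for reaction 1, triangles for reaction 2 and a line through the stage means. Each panel spans 1.5 log2 units. Ndufb9, Uqcr11 and Cox6a1 stay within a narrow range to e14.5 and are higher at e15.5 and e16.5, Uqcrq dips at e13.5 before the same rise, Cox7a1 climbs at every stage, and Ndufs4 declines.

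A line over 5 days can miss a change that comes in a step, so stages were also compared in pairs. For e16.5 against e12.5, calls needed an adjusted p under 0.05 and at least 1.5-fold. On this rule 7 of the 84 genes were higher and 0 lower, against 5.68% and 12.5% of all genes. The 7 were Ndufa6, Ndufb9, Cox7a1, Uqcr11, Ndufb10, Ndufa13 and Uqcrq, each of which also rose in the stage trend on the same arrays. Their folds ran from 1.57 for Uqcrq to 2.09 for Ndufa6. With no fold minimum 36 genes were higher and 7 lower, against 28.2% and 29.4% of all genes. The higher ones were 18 of 39 in complex I, 1 of 8 in complex II, 6 of 7 in complex III, 4 of 16 in complex IV and 7 of 14 in complex V. These tests set a difference against the labelling spread alone, so without a fold minimum they also take small differences between pools.

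Between consecutive days, few genes passed with the fold minimum. From e12.5 to e13.5, 1 gene was higher and 0 lower (0.438% and 0.645% of all genes). It was Ndufaf1, a complex I assembly factor. Its levels were 6.15 and 6.08 at e12.5, 6.79 and 6.64 at e13.5, 6.15 and 6.26 at e14.5, 6.40 and 6.31 at e15.5, and 6.36 and 6.49 at e16.5, so the arrays of e13.5 stood above all 8 others. The step was 0.60 ± 0.08 (limma adjusted p = 0.000606), or 1.51-fold. At a fold just over the minimum it lost the call without reaction 2 of e12.5, without reaction 1 of e13.5, and when each chip was quantile normalized again. Without the fold minimum 1 was higher and 2 were lower (6.93% and 7.69% of all genes), the latter being Ndufs7 and Ndufaf5. From e13.5 to e14.5, 0 genes were called in either direction (0.457% and 0.345% of all genes), and 15 of the 84 had an unadjusted limma p under 0.05. The share of all genes at that unadjusted p was not counted, so the 15 have no baseline. Without the minimum 1 was higher, Uqcrc1, and 2 were lower, Ndufaf1 and Ndufb8 (1.82% and 2.79% of all genes).

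From e14.5 to e15.5, 1 gene was called higher and 0 lower, against 1.40% and 0.689% of all genes. It was Ndufb8, a membrane arm subunit of complex I whose protein is often probed as a marker of the assembled enzyme. Ndufb8 read 9.67 and 9.64 at e12.5, 9.74 and 9.81 at e13.5, 9.41 and 9.53 at e14.5, 10.15 and 10.201 at e15.5, and 10.14 and 10.04 at e16.5. The arrays of e14.5 were the lowest and those of e15.5 and e16.5 the highest, with the early stages between. The step to e15.5 was 0.70 ± 0.07 (limma adjusted p = 4.55e-05), or 1.63-fold. Over all stages its line did not pass (0.51 ± 0.23, adjusted p = 0.151). From e15.5 to e16.5, 0 genes were called in either direction (0.890% and 2.38% of all genes), with 36 of the 84 at an unadjusted limma p under 0.05. Those 36 have no baseline either, as the share of all genes at that p was not counted.

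The step to e15.5 passed the fold minimum in Ndufb8 alone. With no fold minimum 23 genes were higher at e15.5 than at e14.5 and 0 lower, 27.4% of the 84 against 7.10% of all genes (6.88% of all genes were lower). They were 15 of 39 in complex I, 2 of 8 in complex II, 3 of 7 in complex III, 2 of 16 in complex IV and 1 of 14 in complex V. After Ndufb8 the largest steps were in Ndufb9 (0.52 ± 0.07), Uqcr11 (0.48 ± 0.06), Ndufa6 (0.45 ± 0.11), Ndufa5 (0.41 ± 0.06) and Ndufv3 (0.41 ± 0.06). Ndufa5 and Ndufv3 are accessory subunits of the matrix arm.

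The stages were also compared by a count that needs no variance model. At e15.5, 62 of the 84 genes had both reactions above both reactions of e14.5, and 3 had both below (Ndufa10, Cox6c and Cox8c). That is 73.8% of the genes, against 27.7% of all genes above and 31.0% below. Among all genes brighter than the median of their chip, 30.2% lay above. By complex the count was 33 of 39 in complex I, 5 of 8 in complex II, 7 of 7 in complex III, 8 of 16 in complex IV and 9 of 14 in complex V. The median step was 0.15, against -0.01 for all genes. The other 19 genes overlapped, among them the muscle and testis isoforms Cox6a2, Cox8b, Cox6b2 and Cox7b2 and the head and ring subunits Atp5a1, Atp5d, Atp5e, Atp5g1 and Atp5g2.

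The earlier days looked different. From e12.5 to e13.5, 14 genes lay above and 26 below, 16.7% and 31.0% of the 84 (28.4% and 27.4% of all genes). From e13.5 to e14.5, 10 lay above and 32 below, 11.9% and 38.1% (26.4% and 27.3% of all genes). The median step to e14.5 was small, -0.019. Set against e12.5, 9 lay above at e14.5 and 36 below, 10.7% and 42.9% (33.0% and 32.0% of all genes). Genes brighter than the median of their chip lay below more often than all genes did. Their shares below in these 3 comparisons were 31.2%, 31.8% and 37.1%, and their shares above 29.5%, 26.8% and 33.3%. With no fold minimum, 27 genes were lower at e14.5 than the mean of e12.5 and e16.5 and 1 was higher (6.74% and 9.06% of all genes). With the fold minimum 0 were called (0.620% lower and 0.601% higher of all genes), and 46 had an unadjusted limma p under 0.05. The share of all genes at that unadjusted p was not counted. This contrast also takes genes that were level to e14.5 and rose later, so by itself it does not mark a low point. Among its 27 were Ndufb9 (8.50 at e12.5 and 8.56 at e14.5) and Uqcr11 (9.35 and 9.37).

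The arrays of e15.5 were also set against the earlier stages. Against e13.5, 56 genes had both reactions of e15.5 above and 12 below, and against e12.5, 50 lay above and 11 below. For all genes the shares above were 31.4% and 36.4%, and the shares below 32.9% and 34.6%. On chip A alone 50 of 66 genes lay above e14.5, against 29.6% of all genes on that chip. Quantile normalizing each chip again left 55 above, and centring arrays on their median gave 68. Stage and pool cannot be told apart in any of these counts.

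From e15.5 to e16.5 the genes divided. There 39 had both reactions above and 21 below (29.5% and 34.3% of all genes). With no fold minimum 17 were higher and 9 lower (9.21% and 16.9% of all genes). The higher ones were 8 in complex I, 4 in complex III, 1 in complex IV and 4 in complex V, led by Ndufa6 (0.48 ± 0.11), Ndufb10 (0.43 ± 0.06) and Ndufa13 (0.43 ± 0.07). The lower ones were led by Sdhd and Uqcrc1, given above, and Cox5a (-0.33 ± 0.07), a subunit on the matrix side of complex IV. In complex II 5 of 8 genes lay below at e16.5 and 1 above. In complex V 8 of 14 lay above and 1 below.

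**Figure D3:**
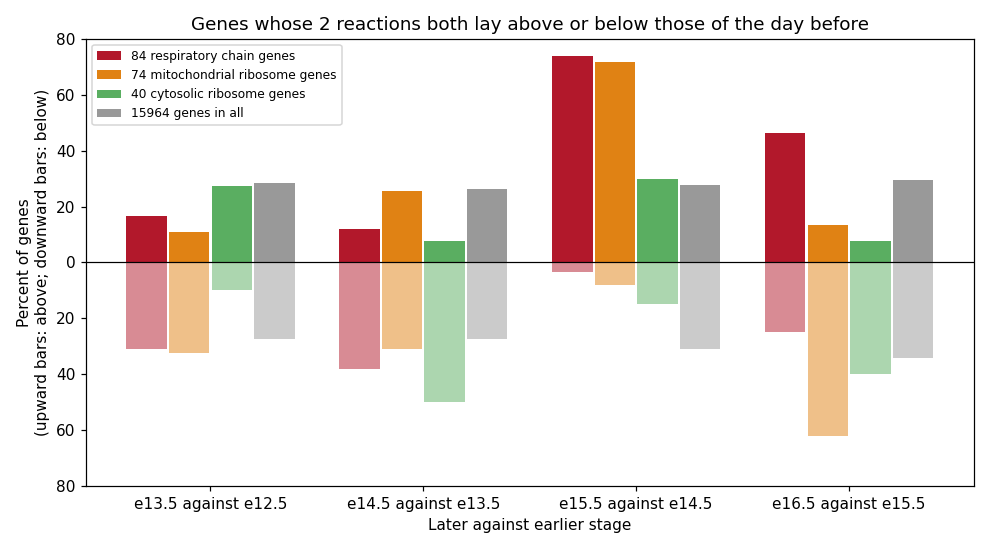
Percent of genes whose 2 reactions both lay above (upward bars) or both below (downward bars, paler) those of the day before, for the 84 respiratory chain genes, 74 mitochondrial ribosome genes, 40 cytosolic ribosome genes and all 15964 genes. At e15.5, 73.8% of the respiratory chain genes and 71.6% of the mitochondrial ribosome genes lay above, against 27.7% of all genes; at e16.5 the shares were 46.4% and 13.5%.

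Other gene lists of the mitochondrion differed in how far they shared the step to e15.5. Of 74 genes of the mitochondrial ribosome, which translates the mitochondrial core subunits, 53 had both reactions above e14.5 at e15.5 and 6 below. That is 71.6% and 8.11% of the list, against 27.7% and 31.0% of all genes. At e16.5, 10 of them lay above and 46 below, 13.5% and 62.2%, against 29.5% and 34.3% of all genes. In the stage trend 9 rose and 3 fell, with a median change of -0.0038. The share that rose, 12.2%, is near the 11.9% of all genes, and 4.05% fell, against 17.0%. Mrps24 rose by 1.13 ± 0.19 (adjusted p = 0.00828) and Mrps6 fell by 1.09 ± 0.15 (adjusted p = 0.00238). Of 40 genes of the cytosolic ribosome, 12 lay above at e15.5 and 6 below, 30.0% and 15.0%, so the share above is near that of all genes. Over all stages 0 of them rose and 1, Rpl22, fell by 1.02 ± 0.14 (adjusted p = 0.0049).

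The tricarboxylic acid cycle and pyruvate dehydrogenase, which feed NADH and succinate to the chain, had 23 genes measured. At e15.5, 15 of them lay above e14.5 and 3 below, 65.2% and 13.0%, against 27.7% and 31.0% of all genes. At e16.5, 5 lay above and 14 below, 21.7% and 60.9%, against 29.5% and 34.3% of all genes. Over all stages 6 rose and 1 fell, 26.1% and 4.35% of the list, against 11.9% and 17.0% of all genes. Pdk1, a kinase that switches pyruvate dehydrogenase off, rose by 1.33 ± 0.16 (adjusted p = 0.00301). Suclg1, a subunit of succinate-CoA ligase, rose by 1.04 ± 0.15 (adjusted p = 0.00543), and pyruvate carboxylase (Pcx) by 0.91 ± 0.22 (adjusted p = 0.0301). Idh3b, of isocitrate dehydrogenase, fell by 0.47 ± 0.12 (adjusted p = 0.0248).

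Among 48 electron carriers and assembly factors of the chain, 5 rose and 3 fell, 10.4% and 6.25%, against 11.9% and 17.0% of all genes. Cox17, the copper chaperone of complex IV, rose by 0.84 ± 0.14 (adjusted p = 0.00863). Coq8a, Coq9 and Coq3, which act in the making of coenzyme Q, rose by 0.70 ± 0.12 (adjusted p = 0.00503), 0.66 ± 0.13 (adjusted p = 0.0141) and 0.64 ± 0.17 (adjusted p = 0.0352). Atpif1, the inhibitor of the ATP synthase, fell by 0.44 ± 0.12 (adjusted p = 0.0422). Cytochrome c (Cycs, 0.17 ± 0.14) and cytochrome c1 (Cyc1, 0.09 ± 0.15) did not pass. At e15.5, 25 of the 48 lay above e14.5 and 6 below, 52.1% and 12.5%, against 27.7% and 31.0% of all genes.

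Mitochondrial carriers, porins and import genes had 0 rises and 4 falls among 29. The share that fell, 13.8%, is near the 17.0% of all genes. At e15.5, 12 of the 29 lay above e14.5 and 6 below, 41.4% and 20.7%, against 27.7% and 31.0% of all genes. Slc25a4, the muscle and heart type ADP/ATP carrier, fell by 0.95 ± 0.12 (adjusted p = 0.00379), and Tomm20, an import receptor, by 0.80 ± 0.10 (adjusted p = 0.00182). Of 17 regulators of mitochondrial biogenesis 1 rose and 3 fell. The share that fell, 17.6%, is again near that of all genes. At e15.5, 2 of the 17 lay above e14.5 and 5 below, 11.8% and 29.4%. The coactivator Ppargc1a, dim at every stage, rose by 0.40 ± 0.12 (adjusted p = 0.0488). Gabpa and Gabpb1, the subunits of the ETS factor also called NRF2, fell by 0.75 ± 0.20 (adjusted p = 0.0377) and 0.75 ± 0.12 (adjusted p = 0.00438). Tfam, which packages and transcribes mitochondrial DNA, fell by 0.79 ± 0.12 (adjusted p = 0.00457). Nrf1 (0.22 ± 0.12) and Esrra (-0.03 ± 0.11) did not pass.

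**Figure D4:**
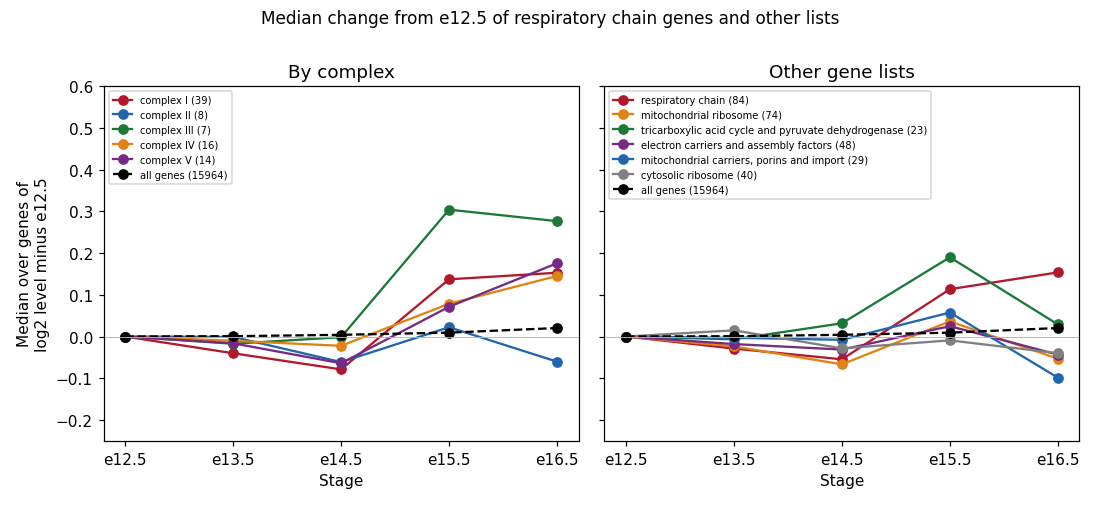
Median over genes of the log2 level minus that at e12.5, by stage, for each respiratory complex (left) and for other gene lists (right), with the number of genes in brackets and all 15964 genes as a dashed line. Complex III stands at 0.30 at e15.5 and 0.28 at e16.5, complex II at 0.02 and -0.06, and the mitochondrial ribosome at 0.04 and -0.05.

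Over the same days RNA of cell type markers shifted. Between e14.5 and e15.5 the summed level of the 12 acinar markers, on the linear scale, went from 25357 and 25190 to 53509 and 52148 in the 2 reactions, and 12 of 12 markers lay above. That of the 9 mesenchyme markers went from 6306 and 6282 to 5479 and 5142, and 0 of 9 lay above and 7 below. Of the neural and Schwann cell markers 5 of 6 lay below at e15.5. Islet markers divided, with 4 of 8 above and 3 below, and of 7 endothelial markers 1 lay above and 4 below. The shares of all genes at e15.5 were 27.7% above and 31.0% below. The summed level of the 5 red cell markers went from 11523 and 11821 to 8603 and 8522, but the markers divided, with 2 above and 3 below. At e16.5, 7 of 7 cell cycle markers lay below e15.5 and 7 of 8 leukocyte markers above, the latter with a summed level that went from 530 and 516 to 1324 and 1332. The shares of all genes at e16.5 were 29.5% above and 34.3% below. The part of these shifts in the step of the respiratory chain genes was not tested.

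The promoters were read to see what the genes share in sequence. Windows from 250 bases before to 50 bases after the annotated start were taken from RefSeq (GRCm38.p6) for 70 of the 84 genes. Nuclear respiratory factor 1 (NRF1), known for driving genes of the respiratory chain, binds a GC-rich palindrome, searched in both orientations with 1 free base. A match was found in 15 of 70 genes, 21.4%, against 7.17% of 17492 protein coding genes and 9.09% of the genes on the arrays. Matches to YY1 (AAGATGGCG, reverse CGCCATCTT) were in 7 of 70, against 2.14% of protein coding genes. The ETS motif of GABPA (CCGGAAGT, reverse ACTTCCGG) was in 4 of 70, 5.71%, against 5.69%, and the TATA box (TATAAA, reverse TTTATA) in 9 of 70, 12.9%, against 14.8%. The ERRA motif (TCAAGGTCA, reverse TGACCTTGA) was in 1 of 70, Sdhd, or 1.43%, against 0.377% of protein coding genes.

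The share with an NRF1 match was no higher among the genes that took the step to e15.5. A match was found in 11 of the 54 genes with a promoter that lay above at e15.5 (20.4%) and in 4 of the 16 others (25.0%). It was in 2 of the 10 genes with a promoter that rose in the stage trend, Cox6a1 and Ndufa6. The stretches below show the match, in capitals, in genes of complexes I, II, IV and V, with the distance to the start in bases, and the ETS match of Uqcr11, the complex III gene that rose most. All are printed 5′ to 3′ on the strand of the gene and end before the start. A match is a description of the letters, not a site of binding.

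Cox6a1 (chr5:115349071-115349160, minus strand, -202 to -113): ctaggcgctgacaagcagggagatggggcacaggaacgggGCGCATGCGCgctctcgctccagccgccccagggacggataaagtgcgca

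Atp5k (chr5:108434400-108434489, minus strand, -90 to -1): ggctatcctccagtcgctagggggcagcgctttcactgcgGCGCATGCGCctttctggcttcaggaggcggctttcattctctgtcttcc

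Ndufa8 (chr2:36049339-36049408, minus strand, -70 to -1): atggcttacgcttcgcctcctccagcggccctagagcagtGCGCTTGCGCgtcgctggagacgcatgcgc

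Atp5c1 (chr2:10080433-10080489, minus strand, -57 to -1): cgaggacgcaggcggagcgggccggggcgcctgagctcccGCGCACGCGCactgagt

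Sdhd (chr9:50603879-50603968, minus strand, -119 to -30): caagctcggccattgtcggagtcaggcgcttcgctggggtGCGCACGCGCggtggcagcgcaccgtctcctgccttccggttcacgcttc

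Sdha (chr13:74350289-74350378, minus strand, -138 to -49): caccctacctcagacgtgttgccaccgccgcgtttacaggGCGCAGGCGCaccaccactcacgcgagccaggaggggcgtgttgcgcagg

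Uqcr11 (chr10:80406840-80406927, minus strand, -106 to -19): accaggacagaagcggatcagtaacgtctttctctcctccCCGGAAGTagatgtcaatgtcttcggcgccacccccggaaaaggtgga

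Genes with the same letters took different courses. Cox6a1 rose, and it holds a second match from -117 to -108. Atp5k and Atp5c1 lay above at e15.5 and did not pass in the trend. Sdhd was highest at e15.5 and lower at e16.5, and Sdha, with 3 matches, overlapped between e14.5 and e15.5.

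Probe sets set a limit to these values. The 84 genes had 153 probe sets, and 43 genes had more than 1. Of the 69 probe sets not used, 4 rose and 1 fell in the stage trend, and no gene had probe sets that passed in opposite directions. Of the 26 bright ones among them, 11 had both reactions above at e15.5 and 2 below. Of the bright probe sets used, 57 of 74 lay above and 3 below, so the step was less frequent in those not used. Among all genes brighter than the median of their chip, 30.2% lay above and 34.9% below. Of the 14 genes that passed in the trend, 8 had a single probe set.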

How the data were processed

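RNA of 5 pools of dorsal pancreata, 1 per stage, was labelled in 2 reactions and hybridised to the 3 chips of the set, per the labels' protocols. The deposited values are log2 expression values made with RMA (background correction, quantile normalization and probe summary), per the submitters' processing notes. The software and version are not given in the sources used here, and the log base was inferred from the range of the values. RMA removes differences in overall brightness between arrays. Each chip is a table of its own, so no level was compared between chips.

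Names came from the platform annotation in GEO. Of 36701 probe sets 29131 had 1 symbol, and the brightest probe set of a gene (by its mean over 10 arrays) stands for it. The genes studied, the gene lists, the tests and the naming rule were chosen with earlier results of these data known, and the arms and roles of subunits were set after their values were seen. The rule names, for each complex, the 5 largest passing rises and 3 largest passing falls (or the 2 largest changes), tissue isoforms, core subunits, contrast calls, genes whose probe sets disagree, and up to 4 passing genes of each other list. Genes named outside the rule, such as Ndufb1, Ndufa1, Ndufa5 and Ndufv3, were chosen after their values were seen.

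Tests used limma 3.58.1 in R 4.3.3. Lines were fitted to pool means, contrasts to the 10 arrays of a chip with stage as a factor. Benjamini-Hochberg adjustment ran over all probe sets of the 3 chips at once, with a threshold of 0.05. In contrasts the SE holds the labelling spread alone. The functions were tested on simulated data. The replicate numbers do not pair the samples, since the differences between reactions 1 and 2 correlated between stages at medians of -0.01, 0.02 and -0.0046 on chips A, B and C. Alternatives were other scalings, a filter on dim probe sets, other variance models, other fold minimums, other choices of probe set, and leaving out each array and each pool. No sample was left out, and the number of arrays limits the precision.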

Additional observations from a re-analysis of the deposited data

How the results depend on the processing

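The labelling reactions share a pool, and how they enter the fit moved the counts of the stage trend most. With the 10 arrays as separate samples 34 genes rose (18 in complex I, 1 in II, 5 in III, 4 in IV, 6 in V) and 4 fell (2 in II, 1 in IV). With the replicate block 30 rose (15, 1, 5, 4 and 5) and 4 fell (2 in II, 1 in IV), although the numbers do not pair the samples. Both of these fits count the 2 reactions of a pool as independent, and the shares of all genes under them were not counted. With the pool as a random block 22 rose (13, 1, 4, 2 and 2) and 3 fell (1 each in I, II and IV). Bright probe sets alone left 1 fall, 0 in complex II, and 1 rise in complex IV, which also had 1 with an intensity trend or with a gene's probe sets averaged. Complex V had 1 rise after median centring, quantile normalization or without shared probe sets, and 4 rises and 1 fall when probe sets of a gene were averaged. Complex III had 1 rise after quantile normalization.

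Leaving out a pool or an array gave 1 to 13 rises and 0 to 2 falls in all. By complex the rises ran from 0 to 8 in I, 0 to 1 in II, 0 to 3 in III, 1 to 2 in IV and 0 to 2 in V, with 0 to 1 falls in I and in II. In the contrasts of e16.5, e13.5 and e15.5 with e12.5, e12.5 and e14.5, leaving out an array gave 0 to 1 lower, 0 to 1 higher and 1 to 2 higher. With a 2-fold minimum the counts of higher genes were 1, 0 and 0. After quantile normalization 1 gene was lower at e16.5 than at e12.5 and 0 were higher at e13.5. Without a fold minimum the consecutive days had 1 higher and 2 lower at e13.5, 1 and 2 at e14.5, 23 higher at e15.5, and 17 and 9 at e16.5. The contrast of e16.5 with e12.5 had 36 and 7, and that of e14.5 with the ends 1 and 27. Median centring left 1 gene below at e15.5. The counts above and below a stage were given alternatives chosen after seeing the data.

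Directions that turned were all of changes that had not passed. Ndufs1 gave 0.031 after median centring and 0.065 after quantile normalization, Ndufs7 0.077 after the latter, and Sdhd 0.015 after median centring and 0.0037 with the average of its probe sets. Atp5j2 gave -0.51 with that average (limma adjusted p = 0.0453). Over the pools and arrays left out, Ndufs1 ran from -0.038 to 0.067, Ndufs7 from -0.21 to 0.35, Sdhc from -0.052 to 0.17, Sdhd from -0.15 to 0.35, Ndufaf1 from -0.29 to 0.32, Cox6a2 from -0.14 to 0.35, Cox7a2l from -0.076 to 0.052, Cox8b from -0.11 to 0.31 and Atp5g2 from -0.11 to 0.23. The cause was not tested.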

Other observations

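Subunit genes whose probe sets carry several symbols, most often a gene and a near copy, fall outside the 84 genes and cannot be split by these probes. There were 16 such probe sets. Ndufs6 and Ndufs6b, of the matrix arm of complex I, share 4, of which 2 rose. Both are on chip A. One read 9.39 at e12.5 and 10.09 at e16.5 (0.72 ± 0.17 over 4 days, limma adjusted p = 0.0287) and the other from 9.72 to 10.18 (0.48 ± 0.12, adjusted p = 0.0346). Both had their reactions of e15.5 above those of e14.5. The other pair did not pass, a dim probe set on chip B (0.06 ± 0.12, adjusted p = 0.724) and a bright one on chip C (0.12 ± 0.08, adjusted p = 0.336). Cox7c, the subunit VIIc of complex IV, shares its probe sets with Gm12338. One fell by 0.61 ± 0.11 (adjusted p = 0.0112), from 11.88 to 11.32, and the other changed by -0.14 ± 0.12 (adjusted p = 0.451). The probe sets shared by Ndufs5 and Ndufs5-ps (0.37 ± 0.12) and, on chip A, by Ndufa11 and Ndufa11b (0.29 ± 0.13) did not pass, and both lay above at e15.5.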
